A study of Mus musculus with 27 samples.

Results

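The genes examined were 9 genes of viral nucleic acid sensing and of the interferon response: the sensors Ddx58, Ifih1 and Tlr3, the transcription factor Irf7, and the interferon-stimulated effectors Isg15, Ifit1, Ifit3, Oasl2 and Bst2. They were taken by gene symbol and not by a cutoff on their values, but with earlier results of these data known. All 9 were found among the 24065 genes of the count table. The question was whether embryos that lack the DNA methyltransferase DNMT3B carry more RNA from these genes. The groups compared were whole embryos at embryonic day 8.5, measured by total RNA sequencing: 3 wild-type embryos (WT) and 3 Dnmt3b-/- embryos, littermates from matings of heterozygous mice on the C57BL/6J background. The mutant allele came from a floxed Dnmt3b allele recombined by an ACTB-Cre deleter line, so every tissue carried the same catalytically inactive allele. The libraries held 41489332 to 58470286 counts each.

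RIG-I (encoded by Ddx58) and MDA5 (Ifih1) bind viral RNA in the cytoplasm and signal through the adaptor MAVS, whereas TLR3 binds double-stranded RNA in endosomes and signals through TRIF. Both routes activate IRF3 and IRF7, which switch on type I interferon genes, and interferon acting on its receptor then induces a large set of interferon-stimulated genes. Cells that lose DNA methylation can start the same response from their own transcribed repeats, a state known as viral mimicry.

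The deleted gene was read first. Dnmt3b stood at a mean of 9197 ± 4191 normalized counts in WT embryos and of 4463 ± 349 in Dnmt3b-/- embryos (SD, n = 3 each). Its log2 fold change was -1.04 (SE 0.27, edgeR adjusted p = 0.0169), and the ranges of the genotypes did not overlap. The adjusted p was above 0.05 without Dnmt3b-/- embryo 1, 2 or 3 (from 0.0555 to 0.0613). It was also above 0.05 with a correction for GC content and length (log2 fold change -0.84, adjusted p = 0.0639). WT embryo 2 was highest at 14003 normalized counts, with WT embryos 1 and 3 at 7287 and 6301. The size of the fold change thus rested in part on WT embryo 2. Gene-level counts do not separate the deleted exons from the rest of the gene. Over all 15114 genes with enough counts, 320 were higher and 571 lower at an adjusted p under 0.05 and a fold change above 2, and 246 and 710 with scaling to total counts in place of TMM.

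Many interferon-stimulated genes carry the interferon-stimulated response element (ISRE), a site that IRF proteins bind. Its core, searched as GAAA, any 2 bases and GAAA again, on both strands, in the 300-base window from 250 bases before to 50 bases after the RefSeq start site (GRCm38.p6), was present in 6 of the 9 members and in 3.44% of all 32851 promoter windows. The matches are shown because these 6 members share them and the rule that chose the members did not use them. Each run is 30 bases, read 5′ to 3′ on the strand of the gene, with the core in capitals (overlapping cores run together).
Ddx58, chr4:40239804-40239833, minus strand: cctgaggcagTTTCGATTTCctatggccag
Ifih1, chr2:62646206-62646235, minus strand: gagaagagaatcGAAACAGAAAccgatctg
Isg15, chr4:156200871-156200900, minus strand: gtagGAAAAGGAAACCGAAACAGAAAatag
Ifit1, chr19:34640784-34640813, plus strand: gTTTCACTTTCcagtctcagTTTCAGTTTC
Ifit3, chr19:34583363-34583392, plus strand: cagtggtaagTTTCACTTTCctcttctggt
Ifit3, chr19:34583397-34583426, plus strand: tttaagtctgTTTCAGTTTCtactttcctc
Bst2, chr8:71537580-71537609, minus strand: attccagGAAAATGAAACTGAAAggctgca

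Isg15 held 3 overlapping cores, and Ifit1, Ifit3 and Bst2 held 2 each, upstream of the start site that the window is set on, whereas 0.225% of all promoter windows held 2 or more. The single cores of Ddx58 and Ifih1 lay just downstream of the start site, in the first exon. The start site used lay inside the outermost gene end given below, where other RefSeq transcripts begin, by 410 bases for Ifit3, 695 for Tlr3, 75 for Irf7 and 8 for Oasl2, so both Ifit3 cores lie upstream of the start used and within the gene span. No core was found in these windows of Tlr3, Irf7 and Oasl2. The windows of the members differed in their content of CpG, the dinucleotide that DNMT3B methylates: Ddx58 held 15 CpG, Ifih1 14, Bst2 11, Tlr3 10, Irf7 7, Isg15 6, Ifit1 4, Oasl2 3 and Ifit3 1, against a median of 7 over all windows with quartiles of 3 and 20. Methylation of these windows was not analysed here.

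The level of the 9 members in whole embryos was low. Given per length as FPKM (fragments per kilobase of exon scaled to library size, computed from the counts and RefSeq exon lengths), Bst2 came first at 2.59 ± 1.44 and Ddx58 second at 2.05 ± 0.48 (SD over the 6 embryos), and their ranges overlapped. The lowest Ddx58 embryo (1.26 FPKM) was above the highest Ifih1 embryo (0.345 FPKM), and this was the only gap in the order: each later neighbour overlapped the one before it. Ifih1 stood at 0.248 ± 0.077 FPKM, Tlr3 at 0.211 ± 0.047, Ifit3 at 0.101 ± 0.053 and Oasl2 at 0.0838 ± 0.0257. Irf7, Ifit1 and Isg15 closed the order at 0.0473, 0.0278 and 0.0186 FPKM. In all, 7 of the 9 members stayed under 1 FPKM in every embryo, as did 11505 of all 24065 genes. By mean FPKM Bst2 and Ddx58 lay at percentiles 59.9 and 57.7 among all genes, and Isg15, the lowest member, at 27. A gene entered the test when its counts averaged 10 or more across the libraries, which Ddx58, Ifih1, Tlr3, Oasl2 and Bst2 reached and Irf7, Isg15, Ifit1 and Ifit3 did not; Oasl2 lay just inside at a mean of 13 counts and Ifit3 just outside at 9.67.

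**Figure D1:**
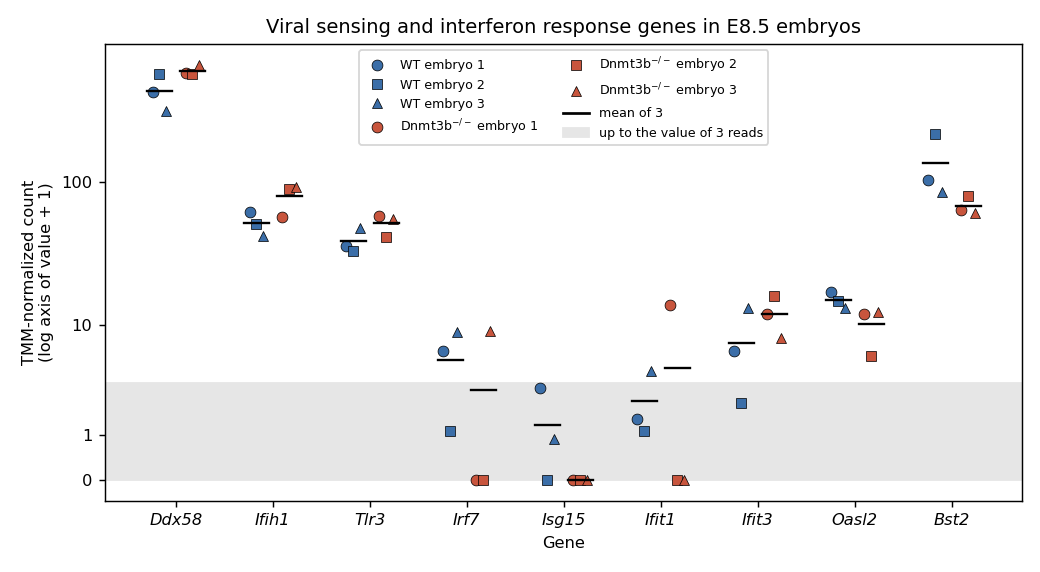
TMM-normalized counts of the 9 genes (log axis of the value + 1) in 3 WT embryos (blue) and 3 Dnmt3b-/- embryos (red), with the embryo number by symbol and the mean of each group as a bar; the grey band ends at the value of 3 reads in the shallowest library. Ddx58 lies highest, the ranges of Bst2 and Oasl2 do not overlap with WT above, and Isg15 has no read in any Dnmt3b-/- embryo.

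None of the 5 tested members passed an adjusted p of 0.05 in edgeR's quasi-likelihood test, with or without the fold threshold, and DESeq2 and limma called none either. At an unadjusted p under 0.05 edgeR had 1 (Bst2, lower) and DESeq2 had 2 (Bst2, lower, and Ddx58, higher). In edgeR 6915 of all 15114 genes tested had an unadjusted p under 0.05. Over all genes tested, 2.12% were called higher and 3.78% lower with the fold threshold, and 17.6% and 18.1% by adjusted p alone. The median log2 fold change of the 5 members was 0.39, beside -0.03 over all genes tested, with 3 members positive and 2 negative. With a correction for GC content and length these medians were -0.05 and -0.002. In both fits the median of the 5 was the value of Tlr3. In 2 of the 5 (Bst2 and Oasl2) every Dnmt3b-/- embryo lay below every WT embryo and in none did every one lie above, while over all genes tested the ranges did not overlap in 26.5% with lower and 25.3% with higher mutant values. With 3 embryos against 3, a two-sided exact permutation test of a single gene cannot go below p = 0.1.

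Among the sensors, Ddx58 (chromosome 4, 40203777 to 40239825) had 402, 536 and 300.0 normalized counts in WT embryos 1 to 3 and 538, 531 and 615 in Dnmt3b-/- embryos 1 to 3. WT embryo 2 lay within the range of the mutants, and WT embryos 1 and 3 lay below it. The log2 fold change was 0.45 (SE 0.21, 95% interval -0.03 to 0.93), an adjusted p of 0.133. Without WT embryo 2 it was 0.68 with an adjusted p of 0.019, the only setting of 14 in which a member passed; the adjusted p over the others reached 0.376. The intervals of the difference allow anything from 0.977-fold to 1.90-fold the WT level.

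Ifih1 (chromosome 2, 62595618 to 62646255) had 61.8, 51.7 and 42.5 normalized counts in WT embryos and 57.1, 89.9 and 91.8 in Dnmt3b-/- embryos. Dnmt3b-/- embryos 2 and 3 lay above all WT embryos and Dnmt3b-/- embryo 1 lay among them. The log2 fold change was 0.61 (SE 0.33, 95% interval -0.14 to 1.36, adjusted p = 0.185), so that a change of up to 2.58-fold could not be told from none at these counts. Its exons share 102 bases with the gene model Gm39839 on the other strand.

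Tlr3 (chromosome 8, 45395665 to 45411075) had 36.5, 33.3 and 48.7 normalized counts in WT embryos and 58.1, 42.0 and 55.5 in Dnmt3b-/- embryos, and the groups overlapped through WT embryo 3. The log2 fold change was 0.39 (SE 0.35, 95% interval -0.42 to 1.20, adjusted p = 0.422). With a correction for GC content and length it was -0.05. The direction of the Tlr3 value therefore depended on that setting.

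**Figure D2:**
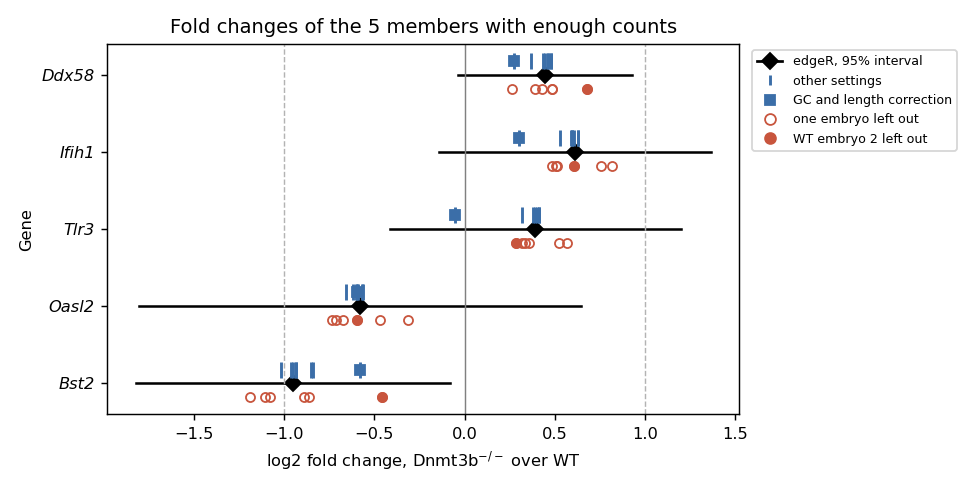
Log2 fold changes of Dnmt3b-/- over WT for the 5 tested members: diamonds with 95% intervals from edgeR, blue marks for other scalings, filters, tests and the GC and length correction (square), and red circles for fits without 1 embryo (filled: without WT embryo 2). The 3 sensors lie at 0.39 to 0.61 with intervals across 0, and the Bst2 value moves toward 0 without WT embryo 2 or with the GC and length correction.

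Irf7, which amplifies interferon transcription (chromosome 7, 141263183 to 141266499), had 8, 1 and 10 reads in WT embryos and 0, 0 and 8 in Dnmt3b-/- embryos. The counts of both groups reach from at or near 0 to about the same height, and the depth does not allow a difference to be read.

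Of the effectors, Isg15, Ifit1 and Ifit3 had few reads. Isg15, a ubiquitin-like modifier (chromosome 4, 156199424 to 156200818), had 4, 0 and 1 reads in WT embryos and 0 in each Dnmt3b-/- embryo, where a count of 0 allows up to 3 reads, or 3.01 to 3.5 normalized counts. Its exons share 80 bases with the gene model Gm46878 on the other strand. Ifit1, which binds viral RNA with foreign ends (chromosome 19, 34640889 to 34650009), had 2, 1 and 5 reads in WT embryos and 14, 0 and 0 in Dnmt3b-/- embryos. A single Dnmt3b-/- embryo thus carried all reads of its group. Ifit3, a partner of Ifit1 (chromosome 19, 34583119 to 34588982), had 8, 2 and 15 reads in WT and 12, 14 and 7 in Dnmt3b-/- embryos, with overlapping ranges. Only 60.9% of 75-base windows along the Ifit3 exons map to a single place in the genome (94.8% for Ifit1 and 100% for the other members), so the Ifit3 counts are uncertain.

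Oasl2, of the 2′-5′ oligoadenylate synthetase-like family (chromosome 5, 114896926 to 114912245), had 17.4, 14.9 and 13.3 normalized counts in WT and 12.02, 5.84 and 12.5 in Dnmt3b-/- embryos. Every mutant value was below every WT value, but WT embryo 3 and Dnmt3b-/- embryo 3 were less than 1 count apart. The log2 fold change was -0.58 (SE 0.54, 95% interval -1.81 to 0.65, adjusted p = 0.435).

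Bst2 encodes tetherin, which holds budding virus particles at the cell surface (chromosome 8, 71534255 to 71537472). It had 103, 211 and 85.0 normalized counts in WT embryos and 64.1, 80.5 and 61.2 in Dnmt3b-/- embryos. WT embryo 2 stood far above the rest, and WT embryo 3 was just above the highest mutant. The log2 fold change was -0.95 (SE 0.38, 95% interval -1.82 to -0.08), with an unadjusted p of 0.0361 and an adjusted p of 0.0849, which ranged from 0.0536 to 0.309 over the alternatives. The value was -0.46 without WT embryo 2 and -0.58 with the GC and length correction.

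WT embryo 2 also stood apart in markers of visceral endoderm, the extra-embryonic layer around the embryo. The 6 markers, of which Apoa1 and Ttr were the most abundant, summed to 317, 959 and 144 FPKM in WT embryos and to 334, 200 and 91.6 FPKM in Dnmt3b-/- embryos. All 6 had a negative log2 fold change (-2.59 to -0.87). Of these only Amn, named here after its values were seen, passed the test (-2.59, adjusted p = 0.0429), and it did not without WT embryo 1 or 2 or Dnmt3b-/- embryo 2 or 3 (adjusted p from 0.0563 to 0.143, with -1.31 without WT embryo 2) or with the GC and length correction (adjusted p = 0.116). Bst2 was thus highest in the embryo with the highest sum, but Dnmt3b-/- embryo 1 had a higher sum than WT embryos 1 and 3 and less Bst2 than both. The order against WT embryo 1 rested on Apoa1. Without Apoa1 the sum was 178 FPKM in Dnmt3b-/- embryo 1, below WT embryo 1 (211 FPKM) and above WT embryo 3 (89.4 FPKM). The part of these cells in the Bst2 and Ddx58 values was not tested. In whole embryos fewer cells of a type and less RNA per cell cannot be told apart.

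Of 13 markers of macrophages and other leukocytes, 9 had at most 10 reads in every embryo and Fcgr1, C1qb and C1qc had none. Their sum was 1.59 to 1.89 FPKM in WT and 2.20 to 3.34 FPKM in Dnmt3b-/- embryos, most of it from Cd68, a lysosomal protein. Cd68 rose by 0.90 on the log2 scale (adjusted p = 0.0342). It did not pass without WT embryo 1 or 3 or Dnmt3b-/- embryo 2 or 3 (adjusted p up to 0.111). Csf1r, the receptor of a macrophage growth factor, had 0.09 (adjusted p = 0.919), and the other markers had too few reads for the test. Without Cd68 the sum was 0.273 to 0.581 FPKM in WT and 0.133 to 0.38 FPKM in Dnmt3b-/- embryos. Among the markers under the count minimum Lyz2, named here after its values were seen, had 7, 8 and 17 reads in WT and 3, 2 and 0 in Dnmt3b-/- embryos. The part of such cells in the values of the members and the lists was not tested. The 6 primitive erythroid markers, led by Hbb-bh1 and Hba-x, summed to 395 to 2231 FPKM in WT, lowest in embryo 2, and to 495 to 1423 FPKM in Dnmt3b-/- embryos. The 6 endothelial markers, led by Kdr and Emcn, summed to 48.2 to 63.7 and 45.5 to 67.4 FPKM. Kdr fell by 0.46 (adjusted p = 0.00633), and the other 5 did not pass the test. The 8 trophoblast and decidua markers summed to 6.65 to 10.2 and 6.96 to 16.3 FPKM, with Prl3d1, Prl2c2, Prl8a2 and Tpbpa at 0 in all 6. The 12 markers of the embryo proper, led by Myl7 and T, were all present and summed to 322 to 436 and 301 to 360 FPKM. By adjusted p 3 of the 12 were higher and 2 lower, against 17.6% and 18.1% of all genes. The 6 adult globin genes were listed at 0 throughout, and as near-identical copies they say nothing of maternal blood.

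**Figure D3:**
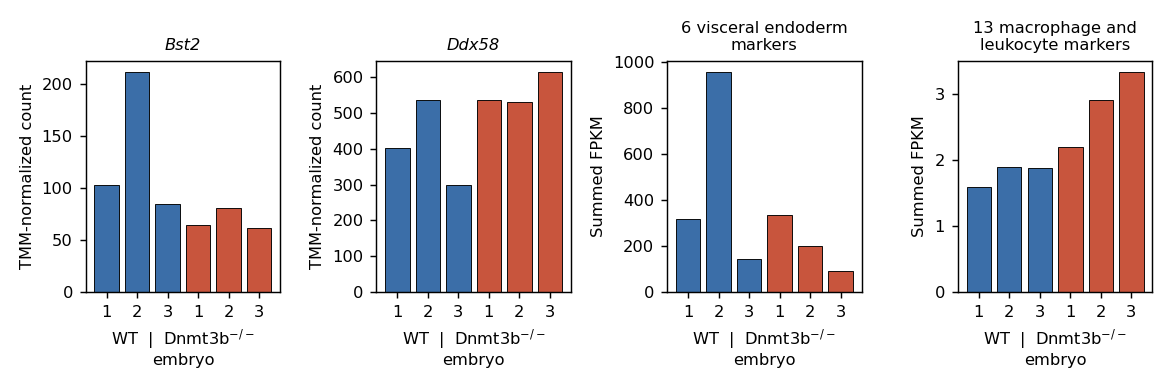
Normalized counts of Bst2 and Ddx58 and summed FPKM of 6 visceral endoderm markers and of 13 macrophage and leukocyte markers in each of 3 WT (blue) and 3 Dnmt3b-/- (red) embryos, bars from 0. WT embryo 2 is the highest for Bst2 and for the visceral endoderm markers, and the macrophage sum stays at 3.34 FPKM or below.

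The rest of the pathway was read from 5 lists of 133 genes, of which 130 were found in the table and 85 had enough counts. By adjusted p 11 of the 85 were higher and 10 lower, against 17.6% and 18.1% of all genes, with a median log2 fold change of 0.02. With a fold change above 2 there remained 2 higher (B2m and Phf11d) and 2 lower (Rnaseh2c and Socs1). After the GC and length correction 8 were higher and 2 lower by adjusted p, against 12.4% and 10.4% of all genes in that fit. Of the 21 genes that passed by adjusted p before, 7 passed again in the same direction: B2m, Ifitm3, Ifnar2, Morc3, Phf11d and Tank (higher) and Rnaseh2a (lower).

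Few or no reads were assigned to the interferon genes, whose products link sensing to the response. Of 21 interferon genes 17 had no read in any of the 6 embryos, among them Ifnb1, the type I interferon made first after sensing, and Ifng. The other 4 (Ifna9, Ifna12, Ifnab and Ifnz) had 14 reads in all, 3, 5 and 1 in WT embryos and 5, 0 and 0 in Dnmt3b-/- embryos, of which Ifnz gave 10. Several of these copies hold stretches found elsewhere in the genome (29.9% of Ifnz windows were unique, against 100% for Ifnb1), so their counts are uncertain. The receptors were present. Ifnar1, a subunit of the type I interferon receptor, stood at 14.8 FPKM with a log2 fold change of 0.02 (95% interval in the edgeR fit from -0.13 to 0.17), and Ifnar2, the other subunit, rose by 0.43 (adjusted p = 0.025). Ifnar2 did not pass without WT embryo 1 or 2 or Dnmt3b-/- embryo 1 (adjusted p from 0.0532 to 0.0801). Ifngr2, of the interferon gamma receptor, had -0.26 and Ifnlr1, of the lambda receptor, 0.08, neither significant.

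**Figure D4:**
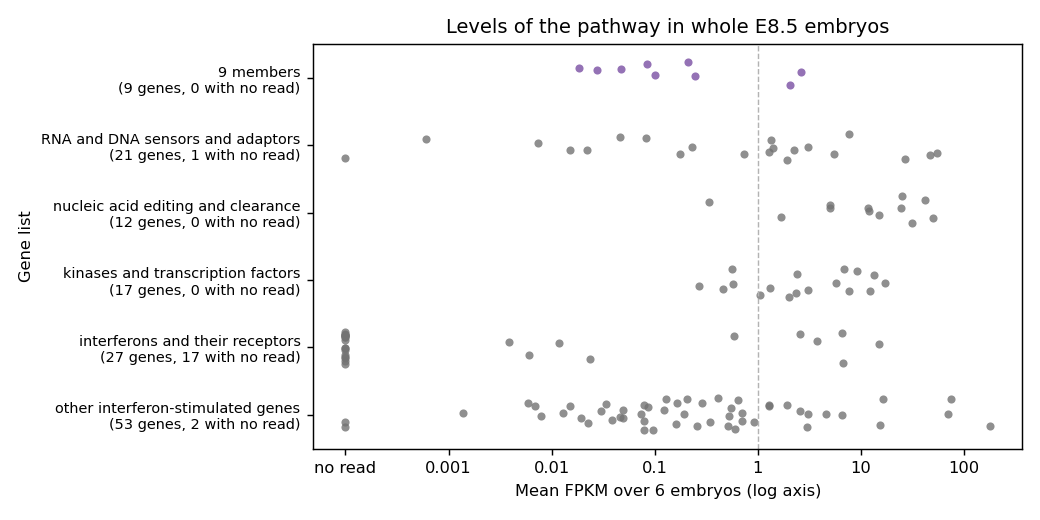
Mean FPKM over 6 embryos (log axis) of the 9 members (purple) and of the genes of 5 lists (grey), 1 point a gene, with genes that had no read at the left edge. Of the 27 genes of interferons and their receptors 17 sit at the left edge. Of 53 other interferon-stimulated genes 38 stay under 1 FPKM in every embryo, as do 11505 of all 24065 genes.

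Of 53 other interferon-stimulated genes 35 were tested. By adjusted p 4 were higher, 2 lower and 29 not significant, against 17.6% higher and 18.1% lower of all genes. The median log2 fold change of the 35 was 0.05. B2m, the light chain of MHC class I, had 1715, 1180 and 1454 normalized counts in WT and 3561, 4643 and 4878 in Dnmt3b-/- embryos. The groups were far apart, a log2 fold change of 1.59 (SE 0.16, adjusted p = 0.000606). Phf11d, a PHD finger gene with close relatives beside it (82.1% of windows unique), had 9.51, 24.1 and 15.0 normalized counts in WT and 74.2, 120.2 and 180.2 in the mutants, with a log2 fold change of 2.96 (SE 0.48, adjusted p = 0.00258). Socs1, the feedback inhibitor of JAK kinases, fell from 57.0, 54.0 and 41.6 to 13.03, 11.7 and 22.7 normalized counts, a log2 fold change of -1.68 (SE 0.43, adjusted p = 0.0174), which was -0.92 (adjusted p = 0.178) after the GC and length correction. The Socs1 call was also lost without WT embryo 1 (adjusted p = 0.0761) or Dnmt3b-/- embryo 2 (adjusted p = 0.0566). Daxx, a histone H3.3 chaperone, fell by 0.66 (adjusted p = 0.00216), and had -0.25 (adjusted p = 0.0758) after that correction. The most abundant genes of the list, Ifitm2 at 179 FPKM and Ifitm1 at 74.3 FPKM, had log2 fold changes of 0.20 and 0.09 and were not significant, while Ifitm3, named here after its values were seen, rose by 0.96 (adjusted p = 0.00284). All 3 restrict virus entry, and Ifitm1 and Ifitm3 also mark germ cells and mesoderm of early embryos.

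Of 21 other sensors and adaptors 15 were tested, and by adjusted p 2 were higher and 1 lower, against 17.6% and 18.1% of all genes. Dhx36, a helicase that unwinds G-quadruplexes, rose by 0.40 (adjusted p = 0.00778) and Aim2, a sensor of cytosolic DNA, by 0.76 (adjusted p = 0.013), whereas Rnf135, a ubiquitin ligase that acts on RIG-I, fell by 0.98 (adjusted p = 0.0389). Dhx9, the most abundant of the list at 55.1 FPKM, had -0.13 (adjusted p = 0.279), and -0.36 (adjusted p = 0.024) after the GC and length correction. Dhx36, Aim2 and Rnf135 did not pass under that correction, where they had -0.03, 0.38 and -0.83. Rnf135 also failed the test when any 1 of 5 embryos was left out, Dnmt3b-/- embryo 1 being the exception (adjusted p from 0.0635 to 0.114).

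Another list held 12 genes that edit or clear nucleic acids and keep them from the sensors, all tested. By adjusted p 2 were higher and 4 lower, against 17.6% and 18.1% of all genes. Rnaseh2c and Rnaseh2a, subunits of the RNase H2 enzyme that cuts RNA paired with DNA, were both lower. Rnaseh2c had 984, 1030 and 1121 normalized counts in WT and 460, 405 and 530 in the mutants, with a log2 fold change of -1.17 (SE 0.13, adjusted p = 0.000832), which was -0.44 (adjusted p = 0.095) after the GC and length correction. Rnaseh2a had -0.78 (SE 0.11, adjusted p = 0.00137), and the third subunit, Rnaseh2b, 0.15 (adjusted p = 0.28). Morc3, a nuclear ATPase, rose by 0.66 (adjusted p = 0.00207), and Pnpt1, a mitochondrial RNA-degrading enzyme, by 0.55 (adjusted p = 0.00265), which was 0.11 (adjusted p = 0.367) after the correction. Adar, the editor of double-stranded RNA that keeps MDA5 silent, named here after its values were seen, had a log2 fold change of -0.57 (adjusted p = 0.00594), which was -0.27 (adjusted p = 0.121) after the GC and length correction.

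Among 17 kinases and transcription factors, all tested, 2 were higher and 3 lower by adjusted p, against 17.6% and 18.1% of all genes. Tank, a scaffold of the kinases TBK1 and IKKε, had 1298, 1268 and 1320 normalized counts in WT and 2360, 2403 and 2627 in the mutants, with a log2 fold change of 0.93 (SE 0.09, adjusted p = 0.000507). Irf3, the factor that sensors activate first, had -0.58 (adjusted p = 0.00393) and Nfkb1, a subunit of NF-κB, -0.28 (adjusted p = 0.0194), values that were -0.13 and -0.08 after the GC and length correction. Nfkb1 also did not pass without WT embryo 3 or Dnmt3b-/- embryo 2 (adjusted p = 0.0633 and 0.0785). Jak1 and Tbk1, the most abundant of the list at 17.2 and 13.4 FPKM, had 0.23 and 0.26 and did not pass in edgeR. Both passed in DESeq2 (adjusted p = 0.0288 and 0.0182). Jak1 passed in edgeR without Dnmt3b-/- embryo 3 (adjusted p = 0.0286). Tbk1 passed in edgeR without that embryo (adjusted p = 0.0409) or WT embryo 2 (adjusted p = 0.0441). Over 14 alternatives Jak1 passed in 4 and Tbk1 in 6.

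**Figure D5:**
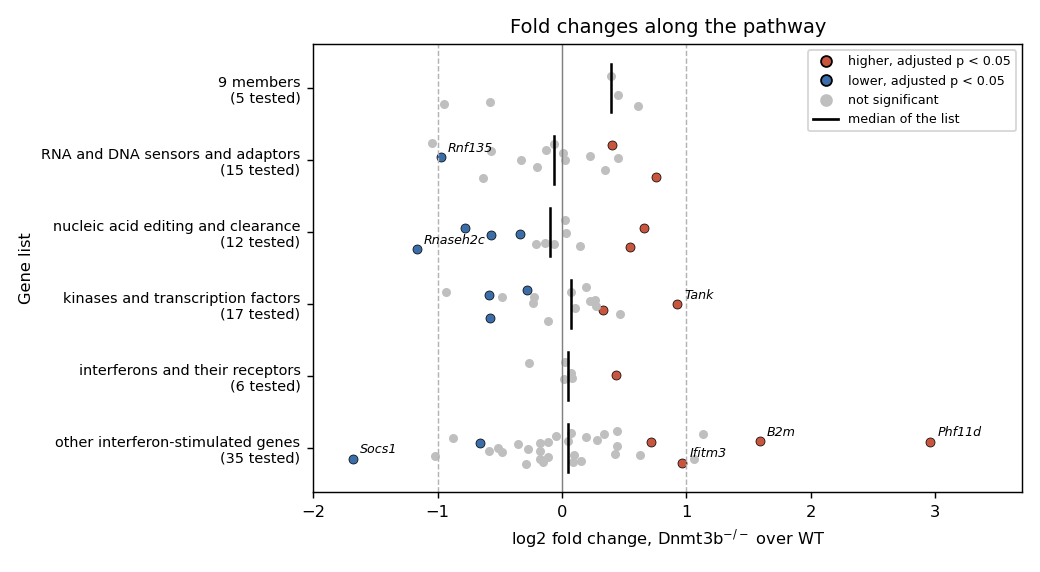
Log2 fold changes of Dnmt3b-/- over WT for the 5 tested members and the 85 tested genes of 5 lists, 1 point a gene, red (higher) and blue (lower) at an adjusted p under 0.05, grey otherwise, with the median of each list as a bar and dashed lines at a 2-fold change. The medians of the 5 lists lie between -0.10 and 0.07, and no member is coloured.

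The 5 genes outside the 9 whose pattern over the 6 embryos was most like the mean standardized pattern of the tested members were Cdc14b, Usp31, Usp48, Kitl and Zcchc8, with Pearson's r from 0.967 to 0.989. The tested members had no common pattern: Pearson's r of their pairs ran from -0.878 (Tlr3 and Bst2) to 0.702 (Ddx58 and Ifih1). The 5 genes were picked for the highest r among many genes over 6 points, so their high r comes in part from the picking. The 6 points of each share libraries and scaling, and none of these 5 genes differed between genotypes at an adjusted p of 0.05.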

How the data were processed

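Total RNA of whole embryos was sequenced after rRNA removal as stranded paired 75-base reads. Per the labels and methods, the authors mapped reads to mm10 with TopHat2 2.0.12 and counted them over RefSeq exons with HTSeq 0.6.0; the strand setting and RefSeq release are not given in the sources used here. The deposited raw counts were used. The deposited normalized counts (signal), and the columns with the authors' own comparison (log2 fold change, adjusted p-value), made with DESeq2 1.4.5, were not used. Bisulfite libraries of the series were not analysed here.

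Genes whose counts averaged 10 or more across the libraries were tested with edgeR 4.0.16 (quasi-likelihood, TMM) in R 4.3.3, with Benjamini-Hochberg adjustment over all genes tested. A gene was called at an adjusted p under 0.05 and a fold change above 2. Normalized counts are TMM-scaled, intervals are 95% intervals of the fit, and p-values rest on 3 separate embryos a group. Alternatives were DESeq2 1.42.0 (test, and size factors), limma 3.58.1 with trend on log2 values with a pseudocount of 1, total-count scaling, no filter or a minimum of 50 counts, a replicate block, each embryo left out, and a spline correction (5 degrees of freedom each) for GC content and length. The edgeR script was tested on simulated data.

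FPKM used exon lengths of RefSeq on GRCm38.p6, whose chromosome coordinates are those of mm10; 22608 genes matched by symbol and 1259 by an older symbol. Windows of 75 bases every 5 bases along exons were mapped with minimap2 2.31. Promoter sequences are from RefSeq (GRCm38.p6); all 9 members matched. The 9 members and the gene and marker lists were chosen with earlier results of these data known. Named were all members; of each pathway list the genes called, the 3 with the smallest adjusted p and the 2 most abundant; of each marker list the 2 most abundant and those at 0; and the 5 genes of at least 1 FPKM most like the members. Others are marked as named after their values were seen.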

Additional observations from a re-analysis of the deposited data

How the results depend on the processing

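No member was called under the alternatives run, nor by adjusted p alone, except that Ddx58 passed an adjusted p of 0.05 without WT embryo 2. Leaving out each embryo in turn, the log2 fold change ranged from 0.26 to 0.68 for Ddx58, from 0.48 to 0.81 for Ifih1, from 0.29 to 0.57 for Tlr3, from -0.73 to -0.31 for Oasl2 and from -1.19 to -0.46 for Bst2. The Tlr3 value was -0.053 with the GC and length correction; the cause was not tested. For the 85 pathway genes, leaving out an embryo gave 9 to 11 higher and 6 to 11 lower genes, the 6 without Dnmt3b-/- embryo 2. The GC and length correction gave 8 higher and 2 lower, and adding the fold threshold gave 2 and 2. Over all genes that correction changed the genes with adjusted p under 0.05 from 2654 to 1869 higher and from 2741 to 1561 lower, and those also past the fold threshold from 320 to 314 and from 571 to 128. The replicate block gave 0 member calls and 9 higher and 7 lower pathway genes. Deviations of same-numbered embryos from the mean of their genotype correlated at -0.049, -0.147 and -0.013, and those of differently numbered embryos at -0.083 to 0.135. These values gave no sign of pairing by number, but shared litters cannot be read from them. Members under 10 counts are limited by depth: 3 reads equal 2.38 to 3.5 normalized counts.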

Other observations

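Other genes of antigen presentation by MHC class I did not pass the test that B2m passed. These genes were picked from the list of interferon-stimulated genes after their values were seen. The heavy chains H2-K1 (4.62 FPKM) and H2-D1 (1.27 FPKM) had log2 fold changes of 0.09 (adjusted p = 0.724) and -0.16 (adjusted p = 0.692), and the peptide transporter Tap1 had -0.28 (adjusted p = 0.663) at 0.163 FPKM. The immunoproteasome subunits Psmb8 and Psmb9 had 10 and 6 reads over all 6 embryos and were not tested. All of these reads were in WT embryos: 0, 7 and 3 for Psmb8 and 3, 1 and 2 for Psmb9, against 0 in each Dnmt3b-/- embryo. Whether the B2m value differed from these was not tested.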
